A study of Arabidopsis thaliana with 10 samples.

Results

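The tau and phi classes of glutathione transferase were followed in whole Arabidopsis thaliana seedlings after a high dose of gamma radiation. Members were chosen by locus: 39 loci, made of 28 tau genes (GSTU1 to GSTU28) and 11 phi genes (GSTF2, GSTF3, GSTF5 to GSTF11, GSTF13 and GSTF14). Of these, 38 had a probe on the array, and 37 were bright enough to be tested among 23666 tested genes in all. GSTU21 matched no probe, and GSTU15 stayed below the well-above-background mark on all 10 arrays, so no fold is given for it.

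Both groups were wild-type seedlings of the Columbia-0 ecotype, aged 14 days and raised on half-strength Murashige and Skoog agar containing sucrose in long days. The gamma group received 200 Gy from a cobalt-60 source over 4 h, at 50 Gy per h, and the mock group was handled without radiation. Both were harvested 24 h after exposure. The experiment was done 5 times on separate days, each time with new plants. These repeats are called runs here, and a run is a pair of arrays, 1 mock and 1 gamma. The sample titles place runs 1 and 2 (called earlier) in an earlier year than runs 3, 4 and 5 (called later).

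Glutathione transferases join the tripeptide glutathione to reactive or foreign molecules, and some also bind ligands or reduce peroxides. Tau and phi are the large classes of plants; many of their genes are switched on by herbicide safeners, oxidised lipids, hormones and pathogens, in part through TGA transcription factors that bind their promoters. The conjugates are carried into the vacuole by ABCC transporters. Because the tissue was a whole seedling, fewer cells of a type and less RNA per cell cannot be told apart in any value below.

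Each array read 43603 probes with a single dye, and 71.7% to 76.6% of them were well above background, with 0 saturated spots. Levels are the log2 of the processed spot signal minus the log2 of the 75th percentile of that array, so a level can be compared between arrays for 1 gene but not between genes. A change is gamma minus mock on that log2 scale, with run as a block, tested with limma and adjusted over all 23666 genes. The number of arrays, 5 per group, limits the precision. On every slide the mock RNA was at position 1 and the gamma RNA at position 2, so position and treatment cannot be told apart. SMR7, a cell-cycle inhibitor gene that DNA damage switches on, was taken as a check of the labels: its level lay between -3.0 and -2.13 on the mock arrays and between 2.60 and 3.66 on the gamma arrays, a change of 5.73 ± 0.13 (SE, n = 5 runs; limma adjusted p = 6.40e-05).

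The first comparison asked whether the detoxification genes differed in irradiated seedlings 24 h after exposure. None of the 37 tested tau and phi genes passed: 0 were called at an adjusted p under 0.05, where 4.01% of all tested genes were called (1.68% rose and 2.32% fell). The lowest adjusted p among them was 0.0842 by limma. At an unadjusted p under 0.05 there were 9 of 37 genes, or 24.3%, close to the 21.9% of all genes. Of the 37, 7 were there with a positive change, against 9.15% of all genes, and 2 with a negative one, against 12.8%. The changes ran from -1.69 to 0.63, with 23 of 37 above 0 (62.2%, against 46.2% of all genes) and 14 below. Their median was 0.066 against -0.015 over all genes. Gamma lay above mock in all 5 runs for 5 of 37 members, against 10.1% of all genes. It lay below mock in all 5 runs for 2 of 37 members, against 13.5%. The 95% interval of the change stayed within 2-fold either way for 33 of the 37 members, or 89.2%, and for 94.2% of all genes. The 4 exceptions were GSTF5, GSTF13, GSTU9 and GSTU17.

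**Figure D1:**
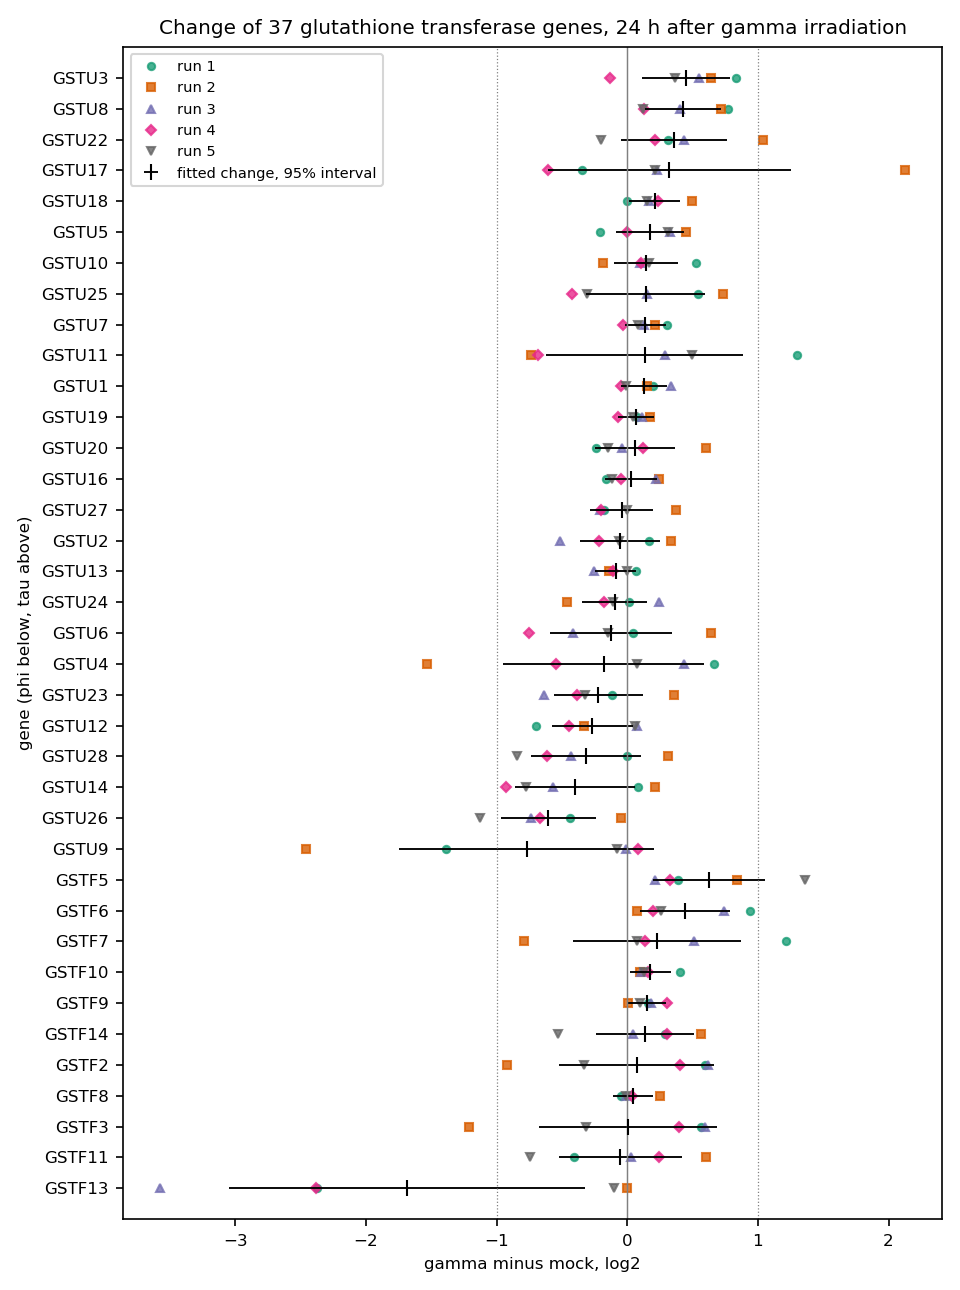
Gamma minus mock (log2) of the 37 tested genes, phi genes in the lower block and tau genes in the upper block. Coloured symbols are the 5 runs, black ticks and bars are the fitted change with its 95% interval, and dotted lines mark a 2-fold difference. The fitted changes lie between -1.69 and 0.63, and single runs scatter well beyond the interval for GSTU9, GSTU17, GSTU4 and GSTU11.

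Of the 26 tau genes tested, 14 lay above 0 (53.8%, against 46.2% of all genes) and 12 below, with a median change of 0.043. Of the 11 phi genes, 9 lay above 0 (81.8%) and 2 below, with a median of 0.13. The difference between the classes was not tested, as genes are not replicates.

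Of the 9 members with the smallest p values 5 were phi genes, and 4 of these had positive changes. GSTF6 (AT1G02930), which adds glutathione during synthesis of the phytoalexin camalexin, had levels of 1.04, 3.03, 2.05, 2.91 and 2.86 on mock arrays 1 to 5 and of 1.98, 3.10, 2.79, 3.11 and 3.12 on the matching gamma arrays. Gamma was the higher array of every pair, but the groups overlapped because mock levels spread over 3.96-fold. Its change was 0.44 ± 0.14 (limma adjusted p = 0.148). GSTF6 lies beside GSTF5 and GSTF7 on chromosome 1 with no other protein-coding gene between them in the RefSeq table (TAIR10.1).

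GSTF5 (AT1G02940) was a dim probe, at -5.76, -4.89, -4.18, -4.78 and -6.68 on mock arrays 1 to 5 and at -5.37, -4.04, -3.97, -4.45 and -5.32 on gamma arrays. It was higher after gamma in 5 of 5 runs, with a change of 0.63 ± 0.18 (adjusted p = 0.111 by limma), and the groups overlapped. The change was 0.24 with normexp background correction. It stayed at 0.63 when dim levels were raised to the lowest signal well above background. GSTF7 (AT1G02920), near-identical to GSTF6, had run differences of 1.22, -0.79, 0.51, 0.14 and 0.07, so run 2 went the other way. Its change was 0.23 ± 0.27, and the 3 neighbours had a median change of 0.44. Cross-hybridisation between GSTF6 and GSTF7 was not tested.

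GSTF9 (AT2G30860), an enzyme with peroxidase activity, and GSTF10 (AT2G30870), a gene also known for induction by dehydration, are neighbours on chromosome 2. GSTF10 had levels of 4.15, 4.47, 4.25, 4.37 and 4.79 on mock arrays 1 to 5 and of 4.55, 4.57, 4.35, 4.53 and 4.91 on gamma arrays. GSTF9 had levels of 6.59, 6.33, 6.0, 6.17 and 6.17 on mock arrays and of 6.75, 6.33, 6.19, 6.47 and 6.27 on gamma arrays. Both genes were slightly higher after gamma in 5 of 5 runs, and the groups overlapped in each. The changes were small, 0.18 ± 0.07 for GSTF10 and 0.15 ± 0.06 for GSTF9, and limma gave adjusted p values of 0.188 and 0.224. The 3 probes of GSTF9 gave changes between 0.15 and 0.29, the widest gap among the 9 members with several probes, all of which agreed in sign.

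GSTF13 (AT3G62760), a phi gene with little functional description, had the most negative change. Its mock levels were -4.40, -4.05, -4.21, -4.63 and -3.79, and its gamma levels were -6.78, -4.05, -7.78, -7.01 and -3.89. Gamma arrays 1, 3 and 4 were not well above background, whereas runs 2 and 5, the measured pairs, differed by -0.0048 and -0.10. The change was -1.69 ± 0.56 (limma adjusted p = 0.157). It was -1.11 when levels under the lowest signal well above background on an array were raised to that signal, and -0.56 with normexp background correction, so its size rests on signals near background.

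The remaining phi genes showed no common direction. GSTF8 (AT2G47730), a gene induced by hydrogen peroxide through an ocs element that TGA factors bind, had a change of 0.044 ± 0.06, with a 95% interval from -0.11 to 0.20. GSTF2 (AT4G02520), whose protein binds indole compounds such as camalexin, and its near-identical relative GSTF3 had changes of 0.072 ± 0.25 and 0.0052 ± 0.28. In run 2 GSTF2 was 0.92 lower after gamma and GSTF3 was 1.21 lower, with differences of -0.92 and -1.21, while runs 1, 3 and 4 gave positive values for both, from 0.40 to 0.62. GSTF11 (AT3G03190), linked to aliphatic glucosinolate synthesis, had -0.053 ± 0.20, and GSTF14 had 0.13 ± 0.15.

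Among tau genes, GSTU26 (AT1G17190) had the smallest p value of all 37 members. This gene, the outermost of the GSTU24 to GSTU26 neighbours on chromosome 1, codes for an enzyme with activity towards chloroacetanilide herbicides. Its levels were 0.44, 0.38, 0.92, 0.63 and 1.57 on mock arrays 1 to 5 and -0.0031, 0.33, 0.18, -0.042 and 0.44 on gamma arrays. Gamma was lower in 5 of 5 runs, by as little as 0.046 in run 2 and as much as 1.13 in run 5 (differences of -0.046 and -1.13), and the groups overlapped. The change was -0.60 ± 0.15 with a 95% interval from -0.97 to -0.24, or 1.52-fold lower, and it did not pass (limma adjusted p = 0.0842). It passed the threshold under some alternatives: without run 2 the change was -0.74 (adjusted p = 0.0390 by limma), and with normexp it was -0.63 (adjusted p = 0.0489). Its neighbours GSTU24 and GSTU25, both of which act on the explosive trinitrotoluene, had changes of -0.097 ± 0.10 and 0.14 ± 0.19.

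GSTU8 (AT3G09270) had the clearest positive change among tau genes. Its levels were 0.83, 0.16, 1.90, 2.01 and 1.72 on mock arrays 1 to 5 and 1.60, 0.88, 2.30, 2.14 and 1.84 on gamma arrays. Gamma was higher in 5 of 5 runs, but both groups had low arrays in runs 1 and 2 and overlapped widely. The change was 0.43 ± 0.12, or 1.35-fold (limma adjusted p = 0.111).

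GSTU1 to GSTU7 form a cluster on chromosome 2, with 3 other protein-coding genes between them in the RefSeq table, and their median change was 0.13. GSTU3 (AT2G29470), a dim probe, lay at -5.74, -6.41, -5.89, -4.59 and -4.12 on mock arrays and at -4.90, -5.77, -5.34, -4.72 and -3.75 on gamma arrays. It was higher after gamma in 4 of 5 runs, the exception being run 4, and its change was 0.45 ± 0.14 (limma adjusted p = 0.134). The change was 0.11 with normexp, and 0.38 with dim levels raised to the lowest signal well above background. GSTU7 (AT2G29420) lay at -0.06, -0.53, 1.04, 1.05 and 1.22 on mock arrays and at 0.24, -0.32, 1.17, 1.02 and 1.30 on gamma arrays. Gamma was again higher in 4 of 5 runs, with a change of 0.14 ± 0.06 (limma adjusted p = 0.274). GSTU5, induced by safeners and auxin, had a change of 0.18 ± 0.11, GSTU1 of 0.13 ± 0.07 and GSTU4 of -0.18 ± 0.32.

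GSTU17 (AT1G10370) and GSTU18 (AT1G10360) are neighbours on chromosome 1. GSTU17 has been tied to abscisic acid and light responses of seedlings. GSTU18 had levels of 2.58, 1.71, 2.55, 2.66 and 2.54 on mock arrays and of 2.57, 2.21, 2.72, 2.90 and 2.69 on gamma arrays. Gamma was higher in 4 of 5 runs and equal to within 0.0044 in run 1, and the change was 0.21 ± 0.08 (limma adjusted p = 0.2). For GSTU17 the 5 differences were -0.34, 2.12, 0.23, -0.61 and 0.21, so a single run stood far above the rest. All 3 probes of GSTU17 carried that excess in run 2, at 2.12, 2.29 and 1.48. The change of GSTU17 was 0.32 ± 0.39 and became -0.13 without run 2.

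GSTU19 (AT1G78380), a major glutathione-conjugating enzyme of seedlings, had levels between 4.72 and 5.19 on the mock arrays and between 4.90 and 5.18 on the gamma arrays. Its change was 0.066 ± 0.06, and the 95% interval from -0.072 to 0.20 was the narrowest of the 37. Its neighbour GSTU20, which interacts with the jasmonate-conjugating enzyme JAR1, had 0.058 ± 0.13. GSTU13, which takes part in indole glucosinolate metabolism, had -0.089 ± 0.06 and its neighbour GSTU14 had -0.40 ± 0.19.

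**Figure D2:**
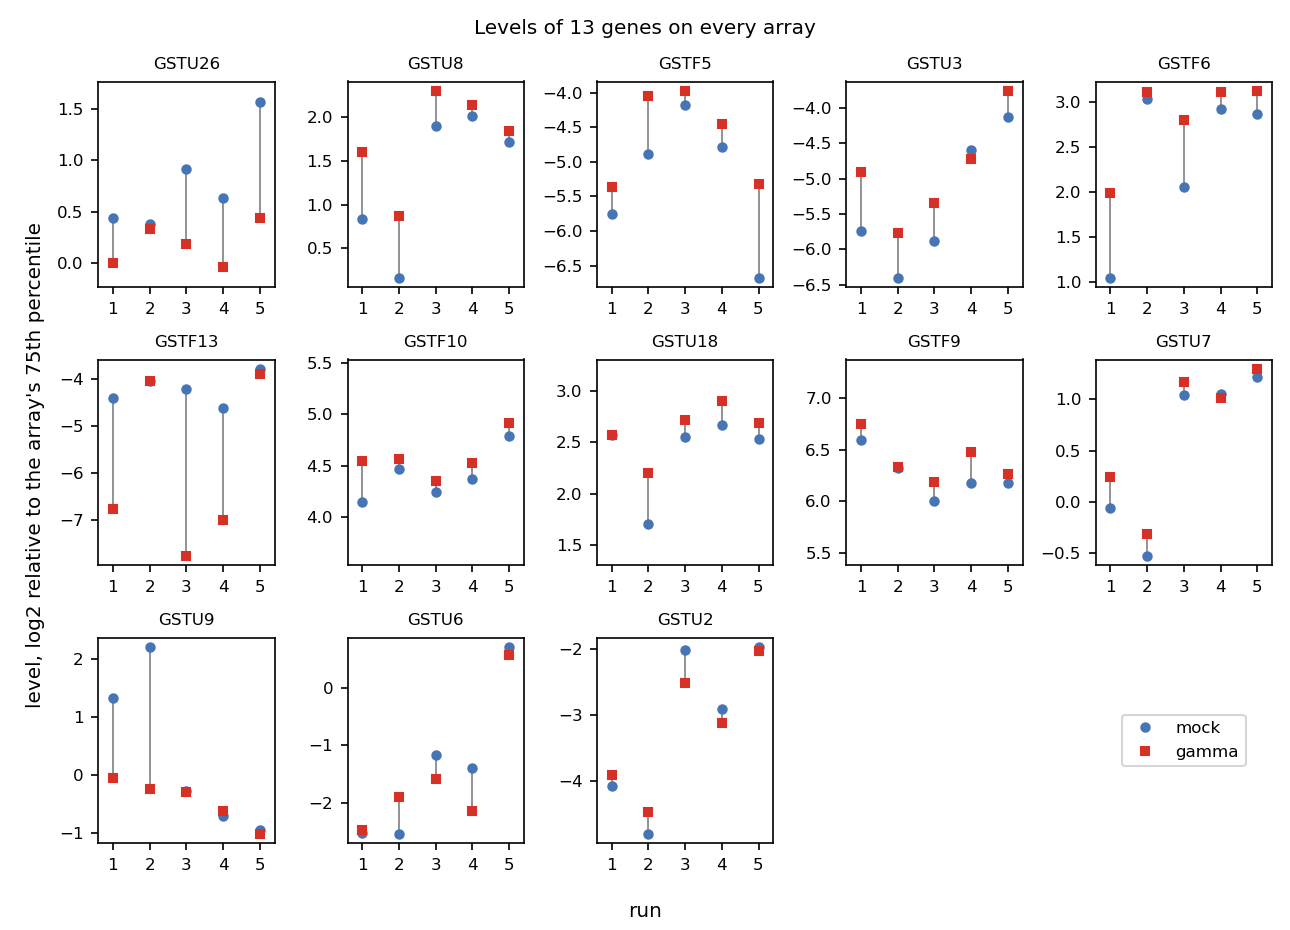
Levels (log2 relative to the array's 75th percentile) of the 10 members with the smallest p values and of the 3 with the largest spread over mock arrays, by run. Blue circles are mock and red squares gamma arrays of the same run, joined by a grey line. For GSTU8, GSTU7 and GSTU2 the runs differ more than the 2 treatments do within a run, and GSTU9 is high only on mock arrays 1 and 2.

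Mock levels of most members spread more widely over the runs than the fitted gamma change. The SD over the 5 mock arrays had a median of 0.61 across the 37 members, against 0.29 over all tested genes. It exceeded the size of the change for 35 of 37 members, all but GSTU26 and GSTF13. The share of all genes for which it did so was not computed. Differences between runs that mock and gamma share are removed from the change by the run block. Mock levels ranged over more than 2-fold for 27 of 37 members, or 73.0%, and for 31.6% of all genes. The smallest mock SD was 0.18, for GSTU19. The largest were those of GSTU9 (1.39), GSTU6 (1.33) and GSTU2 (1.26).

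The tau genes shared a pattern over runs. In 18 of the 37 members both earlier mock arrays lay below all 3 later ones, where 12.3% of all tested genes had that order, and in 3 members both lay above, where 12.1% did. Of these 18 genes 17 were among the 26 tau genes and 1 was among the 11 phi genes. Over all 10 arrays, the 4 earlier arrays lay below the 6 later ones, with no overlap, in 11 members (3.8% of all genes), all of them tau genes. The opposite order held in 2 members (3.3% of all genes), GSTU9 and GSTU20. The 5 members of the chromosome 2 cluster with this order in mock were GSTU1, GSTU2, GSTU4, GSTU6 and GSTU7, and GSTU24, GSTU25 and GSTU26 had it as well.

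GSTU2 (AT2G29480) showed the widest step. It lay at -4.08 and -4.81 on mock arrays 1 and 2 and at -2.01, -2.92 and -1.97 on mock arrays 3 to 5. Gamma arrays followed, at -3.92 and -4.47 in the earlier runs and -2.53, -3.13 and -2.04 in the later ones, so that the mean level was 1.89 higher in the later runs. The change with gamma was only -0.058 ± 0.13 (limma adjusted p = 0.821).

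GSTU6 (AT2G29440) lay at -2.52, -2.54, -1.16, -1.39 and 0.71 on mock arrays 1 to 5 and at -2.47, -1.90, -1.58, -2.15 and 0.56 on gamma arrays. Run 5 was high in both groups, and the change was -0.13 ± 0.19 (limma adjusted p = 0.737). The later runs were higher by 1.76 for GSTU22, by 1.47 for GSTU4 and by 1.39 for GSTU11. The runs differ in plants, days and slides together, which cannot be told apart.

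**Figure D3:**
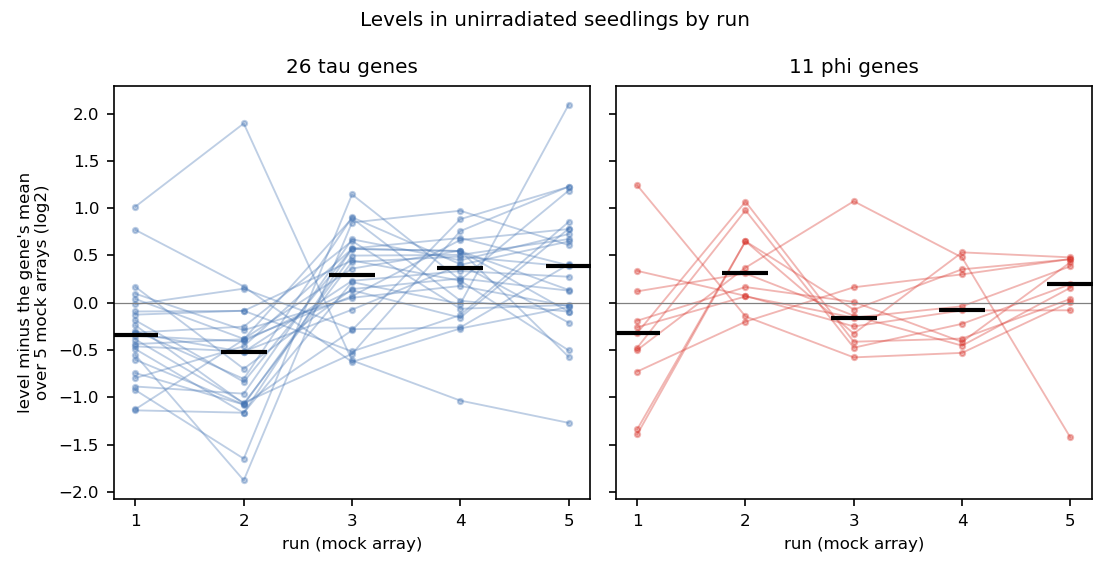
Mock levels of each tested gene by run, given as log2 difference from the mean of that gene over the 5 mock arrays. Thin lines join the values of a gene, and black bars are the median over 26 tau genes (left) or 11 phi genes (right). The tau medians are -0.34 and -0.52 in runs 1 and 2 and between 0.30 and 0.39 in runs 3 to 5, whereas the phi medians run from -0.32 in run 1 to 0.31 in run 2.

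Genes of some other lists had the same order over runs as part of the tau genes. Of all tested genes, 12.3% had both earlier mock arrays below all later ones and 12.1% had both above. The order below held in 2 of 13 other glutathione transferase genes and in 1 of 9 genes of glutathione synthesis and recycling. It held in 0 of 4 vacuolar carrier genes and in 0 of 10 TGA factors and partners. Of 11 tested root markers, 5 had both earlier mock arrays below all later ones, and the summed linear level of the 12 markers on the array was 10.8 and 12.9 times the 75th percentile on earlier mock arrays and between 14.9 and 20.5 on later ones. Such sums weigh each gene by the signal of its probe, which cannot be compared between genes, so bright probes count most. By signal, the phosphate transporter gene PHT1;1 made up 61.7% to 76.4% of that sum. Without it the sum over the other 11 markers was 4.13 and 4.12 on earlier mock arrays and between 4.64 and 6.57 on later ones. Of 14 jasmonate and salicylate markers 4 had the same order, the jasmonate genes LOX2, AOS, VSP1 and VSP2. The opposite order held in 2, the salicylate genes ICS1 and EDS1. The summed level of the 14 was 109 and 102 on earlier mock arrays and between 235 and 290.2 on later ones. Gamma arrays had 107 and 103 in the earlier runs and between 249 and 300.1 in the later ones. VSP1 made up 21.9% to 38.3% of that sum. Without it the sum over the other 13 markers was 82.2 and 71.9 on earlier mock arrays and between 150 and 200 on later ones. Of 8 leaf markers 1 had both earlier mock arrays below all later ones (12.5%, against 12.3% of all genes). Their summed level was 1087 and 987 on earlier mock arrays and between 677 and 1167 on later ones. Of 13 other detoxification genes 6 had this order and 5 had the opposite one. The root quiescent-centre gene WOX5 was well above background on 4 mock and 4 gamma arrays, and the root-tip gene PLT2 on 3 mock and 0 gamma arrays. The part of root material, or of jasmonate and salicylate responses, in the levels of tau genes was not tested.

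The second comparison asked whether the gamma response differed between the earlier and the later runs, as an interaction of treatment with period. No member was called: 0 of 37, with 0.00423% of all genes (1 gene) called. At an unadjusted p under 0.05 there were 9 members, or 24.3%, against 10.5% of all genes. In 8 of them the later change lay below the earlier one, where 6.35% of all genes did, and in 1, GSTU9, above it, where 4.14% did. All 9 were tau genes. The median change of the 37 members was 0.16 in the earlier runs and 0.0053 in the later runs, with -0.013 and -0.011 over all genes.

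GSTU14 (AT1G27140) gave the smallest interaction p. Its gamma minus mock differences were 0.080 and 0.22 in runs 1 and 2 and -0.57, -0.93 and -0.78 in runs 3 to 5. The signs did not overlap between periods, and the later change was lower by 0.91 (difference of -0.91 ± 0.14; limma adjusted p = 0.166). GSTU28 had differences of -0.0016, 0.31, -0.43, -0.62 and -0.84, with an interaction of -0.79 ± 0.17 (adjusted p = 0.273 by limma). GSTU25, GSTU6, GSTU26, GSTU23, GSTU8 and GSTU2 followed, with interactions between -0.83 and -0.51 and adjusted p values between 0.300 and 0.407 by limma.

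**Figure D4:**
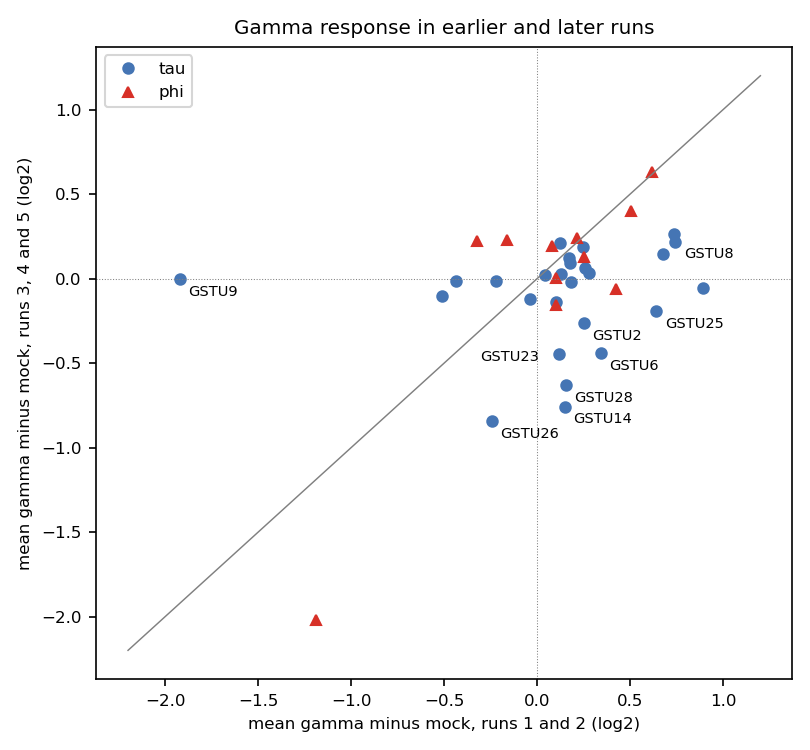
Mean gamma minus mock (log2) of each of 37 members in runs 1 and 2 (horizontal) and in runs 3, 4 and 5 (vertical). Blue circles are tau and red triangles phi genes, the grey diagonal marks equal change, and names mark the 9 members at an unadjusted interaction p under 0.05. Of these, 8 lie below the diagonal and GSTU9 lies far to the left, at -1.92 in the earlier and -0.0030 in the later runs.

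Several root markers had a lower response in the later runs too. Of 11 tested, 6 were at an unadjusted interaction p under 0.05, against 10.5% of all genes, and 0 were called by limma. In 5 of the 6 the later change lay below the earlier one, where 6.35% of all genes did. In NRT2.1 it lay above, with -1.01 in the earlier and 0.53 in the later runs (adjusted p = 0.287 by limma). NRT2.1 was well above background on 4 mock and 2 gamma arrays. PIN2, the root-tip auxin carrier, had a mean difference of 0.044 in the earlier runs and of -0.89 in the later runs (adjusted p = 0.273). COBL9, a root-hair gene, had 0.43 and -0.42 (adjusted p = 0.217 by limma). The median change of the root markers was -0.072, 0.079, -0.33, -0.53 and -0.39 in runs 1 to 5. Over all runs 9 of 11 lay below 0 and 2 above (18.2%, against 46.2% of all genes). The summed root level was 10.8 to 20.5 on mock and 12.3 to 20.1 on gamma arrays, and 4.12 to 6.57 and 3.36 to 4.89 without PHT1;1. Whether root material had a part in the interactions of tau genes was not tested.

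Of the 9 tau genes at an unadjusted interaction p under 0.05, only GSTU9 (AT5G62480) had a later change above the earlier one. It lay at 1.34 and 2.22 on mock arrays 1 and 2, at -0.29, -0.71 and -0.95 on mock arrays 3 to 5, and at -0.048, -0.24, -0.30, -0.63 and -1.03 on gamma arrays 1 to 5. Only the earlier mock arrays stood high, and the gamma arrays of those runs were close to the later arrays. The change over all runs was -0.77 ± 0.40 (limma adjusted p = 0.319), made of -1.92 in the earlier and -0.0030 in the later runs. The interaction was 1.92 ± 0.32 (limma adjusted p = 0.174). Without run 1 it was 2.45 and passed the threshold (adjusted p = 0.0244 by limma), in a fit that left a single earlier pair and called 616 genes instead of 1.

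Some other stress-inducible detoxification genes also had their highest levels on the earlier mock arrays. They were picked after their values were seen, from a list of 13 that was chosen for the class of gene. Of the 13, 5 had both earlier mock arrays above all later ones and 6 had both below, where 12.1% and 12.3% of all genes did. UGT74E2, a glucosyltransferase for indole-butyric acid that hydrogen peroxide induces, lay at 4.08 and 3.99 on mock arrays 1 and 2 and between -0.13 and 0.78 on mock arrays 3 to 5. Its gamma arrays 1 and 2 lay at 1.93 and 1.28. CYP81D8, a cytochrome P450 gene of the same general stress response, lay at 1.11 and 1.43 on the earlier mock arrays, between -2.04 and -1.21 on the later ones, and at -0.50 and -1.17 on the earlier gamma arrays.

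The extrusion-transporter genes DTX3 and DTX4 varied most. DTX4 lay at 0.56 and 1.28 on the earlier mock arrays, where gamma arrays lay at -1.56 and -2.25, and between -7.87 and -5.02 on the later mock arrays. DTX3 lay at -0.25 and -0.33 on the earlier mock arrays, at -2.13 and -3.05 on their gamma partners, and between -5.74 and -4.54 on later mock arrays. Some later values were not well above background. The earlier gamma arrays of UGT74E2, DTX3 and DTX4 lay well above the later arrays, which reached at most 0.80, -4.40 and -5.02 in either group. In that they differed from GSTU9, whose earlier gamma arrays were close to the later arrays. The interactions were 2.23 for UGT74E2, 2.32 for CYP81D8, 2.39 for DTX3 and 3.27 for DTX4, and none passed (limma adjusted p between 0.116 and 0.360). What differed in the earlier mock seedlings was not tested.

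**Figure D5:**
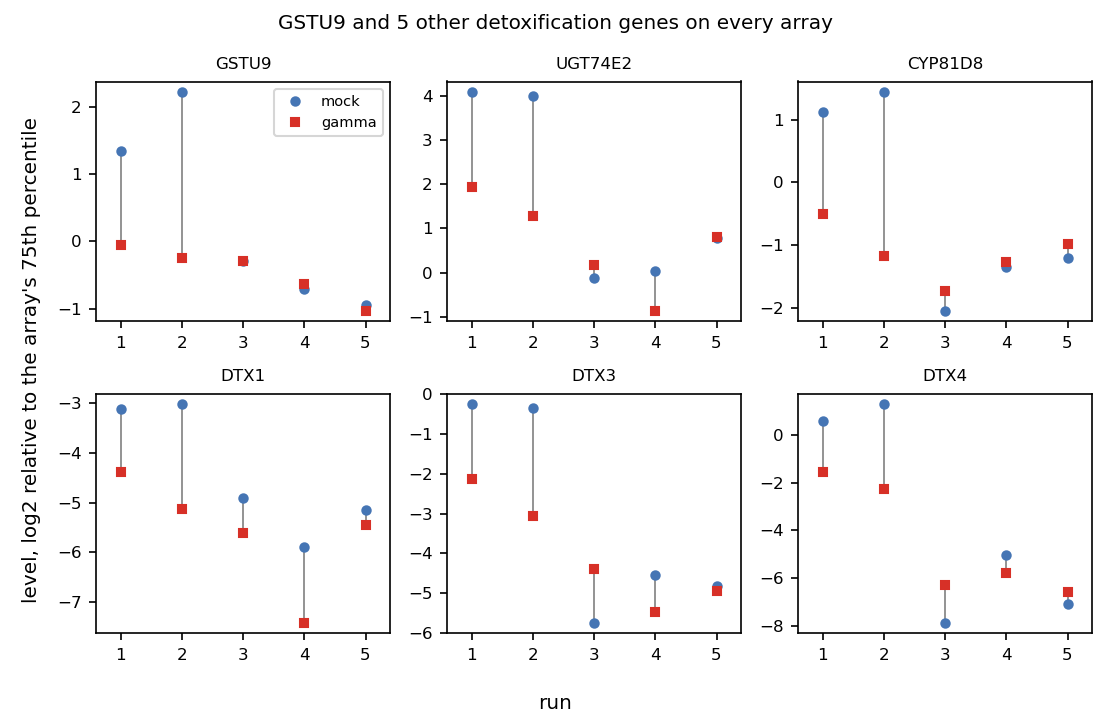
Levels (log2 relative to the array's 75th percentile) of GSTU9 and of 5 other detoxification genes picked after their values were seen, by run. Blue circles are mock and red squares gamma arrays, joined within a run. Mock arrays 1 and 2 are the highest of each gene, for UGT74E2 at 4.08 and 3.99 against 1.93 and 1.28 on their gamma partners.

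Single runs also differed in which members moved. The gamma minus mock differences were correlated across the 37 members, which share arrays and in some cases sequence. They correlated at 0.74 between runs 1 and 3, 0.82 between runs 3 and 4 and 0.53 between runs 1 and 4. All genes gave 0.40, 0.54 and 0.36 for these pairs. GSTF13 had the most negative difference of all members in runs 1, 3 and 4, at -2.37, -3.57 and -2.38. Its gamma arrays in those runs were not well above background, and its weight in these correlations was not tested. Run 5 correlated with runs 1, 3 and 4 at 0.26, 0.27 and 0.21, where all genes gave 0.40, 0.55 and 0.63. Run 2 correlated with the other runs between -0.064 and 0.069, where all genes gave between 0.22 and 0.38. In run 2 GSTU17 was 2.12 higher and GSTU22 1.04 higher after gamma, and GSTU9, GSTU4 and GSTF3 had differences of -2.46, -1.53 and -1.21. Genes of sulfate reduction and glutathione recycling also had their largest differences in that run: APR1, APR2 and APR3, which reduce activated sulfate, were higher by 1.34, 2.02 and 1.21 and the glutathione reductase gene GR1 by 0.83. Their mean changes over 5 runs were between 0.16 and 0.30, and none passed.

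The genes around the tau and phi classes were compared as lists, by counts and medians. A list of other glutathione transferases held the theta, lambda, zeta, dehydroascorbate reductase and TCHQD classes and the phi genes GSTF4 and GSTF12, which lay outside the chosen loci. Of its 13 tested genes 0 passed, and the median change was 0.18. Above 0 lay 10 of them (76.9%, against 46.2% of all genes). At an unadjusted p under 0.05 there were 5 (38.5%, against 21.9% of all genes). GSTF4 had a change of 0.23 ± 0.05 and GSTL2, of the lambda class, of 0.31 ± 0.08 (limma adjusted p = 0.0735 and 0.0893). Both were higher after gamma in 5 of 5 runs.

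Of 9 tested genes of glutathione synthesis and recycling 0 passed, with a median of 0.16. At an unadjusted p under 0.05 there were 2 (22.2%, close to the 21.9% of all genes). GGT4, which starts the breakdown of glutathione conjugates in the vacuole, had 0.25 ± 0.05 and a positive difference in every run (limma adjusted p = 0.0515). GSH1, the first enzyme of glutathione synthesis, had 0.14 ± 0.05 (adjusted p = 0.190). The 4 vacuolar ABCC carriers had a median of 0.16 and 0 passed. ABCC1 had 0.20 ± 0.09 and ABCC4 0.17 ± 0.08. ABCC3, named after its values were seen, lay at 2.30 and 2.20 on mock arrays 1 and 2 and between -0.18 and 0.27 on mock arrays 3 to 5. Its gamma levels were 1.63, 1.53, 0.61, 0.86 and 0.64, so it was lower after gamma in both earlier runs and higher in all 3 later ones. Its interaction was 1.37 ± 0.11, the smallest interaction p of all listed genes outside the tau and phi classes, and it did not pass (limma adjusted p = 0.0537).

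Of 10 TGA factors and their partners 0 passed, 5 lay above and 5 below 0, and the median was -0.012. TGA7 had 0.24 ± 0.08, and SCL14, a partner of class II TGA factors in xenobiotic responses, had -0.15 ± 0.07. Of 14 jasmonate and salicylate markers 0 passed, with a median of 0.16. The jasmonate genes JAZ5 and LOX2 had 0.50 ± 0.18 and 0.28 ± 0.10 (adjusted p = 0.176 and 0.191 by limma).

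Of 13 other detoxification genes 1 rose and 0 fell, where 1.68% and 2.32% of all genes did, and the median was -0.13. At an unadjusted p under 0.05 there were 3 (23.1%, close to the 21.9% of all genes). UGT73B4, a flavonoid and phenol glucosyltransferase of stress and salicylate responses, rose by 0.60 ± 0.10, or 1.52-fold (limma adjusted p = 0.0346). The call was lost without run 1, 3, 4 or 5 (adjusted p between 0.105 and 0.121 by limma) and with the mean of its probes (adjusted p = 0.0653). Its levels were -3.17, -3.21, -1.90, -1.95 and -1.49 on mock arrays 1 to 5 and -2.36, -3.0, -1.05, -1.31 and -0.96 on gamma arrays. Gamma was higher in 5 of 5 runs, and the earlier runs were lower in both groups, as on the mock arrays of 17 tau genes. DTX1, an extrusion transporter, had -1.18 ± 0.25 and a negative difference in 5 of 5 runs, and did not pass (adjusted p = 0.0606 by limma).

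Of the 11 tested root markers 1 fell, where 2.32% of all genes did. It was PLT1, a root stem-cell regulator, with a change of -1.62 ± 0.26 (limma adjusted p = 0.0313). Of its 5 gamma arrays 1 was well above background. The call was lost without run 1, 3 or 5 (adjusted p between 0.0808 and 0.108 by limma). The change was -0.98 (adjusted p = 0.0593) with dim levels raised to the lowest signal well above background and -0.51 with normexp, where it still passed (adjusted p = 0.00969 by limma). CASP1, of the endodermal Casparian strip, had -0.45 ± 0.12 (adjusted p = 0.0969 by limma). Of 8 leaf markers 0 passed and the median was -0.020. LHCB4.2 and RCA, genes of photosynthetic light harvesting and carbon fixation, had -0.15 ± 0.07 and 0.10 ± 0.05.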

How the data were processed

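Per the file headers, each scanner file gives a linear intensity per spot, background-subtracted and detrended, with flags for outlier, saturated and well-above-background spots. The software was Agilent Feature Extraction, version 11.0.1.1 per the file headers and 9.1 per the submitters' processing notes. The deposited value table holds linear ratios centred for most rows on the probe's median over arrays (77.7% of rows had a median of 1, within 1e-04). Its direction followed the scanner values (r of at least 0.996 over probes), its column medians were 0.925 to 0.992, and its scaling is not given in the sources used here. It served as an alternative.

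Control and outlier spots were left out. Values were log2 processed signal minus the log2 75th percentile of the array. Probes were named through RefSeq accessions and locus tags (TAIR10.1): 34348 matched a locus and 9255 did not. The array grid names another release of the build, so no coordinates are given. The brightest probe of a locus was used, if well above background on at least 5 of 10 arrays (23666 genes, 20037 with a locus code). Gamma and mock were compared in R 4.3.3 with limma 3.58.1 (lmFit, eBayes, two-sided, run as a fixed block, Benjamini-Hochberg over all genes, threshold 0.05; residual df 4, prior df 2.27), and a further fit held a treatment-by-period term. The run pairs come from the titles. After removal of each group's mean, partner arrays correlated at 0.562 to 0.894 over genes, and arrays of different runs at most at 0.46.

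On simulated arrays of 23659 genes the gamma comparison recovered 90 of 100 genes changed by a log2 of 1 and 100 of 100 changed by 2. The interaction recovered 32 and 90 of 100. The changed genes were drawn at random from all genes, whose changes had a median SE of 0.081, against 0.14 for the 37 members. Recovery among the members themselves was not simulated. Named members were those with the 10 smallest unadjusted p values and the 3 largest SDs over mock arrays, with others chosen after their values were seen, and 2 genes per further list. Members, lists and tests were chosen with earlier results of these data known. Alternatives were other scalings, normexp (offset 50, on median signals, since a mean signal was not among the columns), the value table, other filters, probe averaging, no block and each run left out. No sequences are shown.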

Additional observations from a re-analysis of the deposited data

Results flagged for a closer look

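Of 114 sets of 5 values examined (mock levels, gamma levels and run differences of the 38 members with a probe), 5 held a value whose distance from its nearest neighbour was more than 0.71 of the whole range. For independent normal values about 1 set in 20 would hold such a value, and 5 of 114 is no more than that. The sets share arrays and are not independent, so chance was not tested. GSTF6 on gamma array 1 was at 1.98, with the others between 2.79 and 3.12. GSTU18 on mock array 2 was at 1.71, with the others between 2.54 and 2.66. GSTF10 had a gamma minus mock difference of 0.40 in run 1, with the others between 0.096 and 0.16. GSTF8 had one of 0.25 in run 2, with the others between -0.046 and 0.033. GSTU15 was at -6.59 on gamma array 2, with the others between -7.87 and -7.52, none of them well above background.

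In GSTU14, GSTU6 and GSTU2, all tau genes, gamma minus mock had 1 sign in both earlier runs and the opposite sign in all 3 later runs. The later change minus the earlier one was -0.91 for GSTU14, -0.78 for GSTU6 and -0.51 for GSTU2. The interaction did not pass for any of them (limma adjusted p = 0.166, 0.399 and 0.397).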

How the results depend on the processing

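The count of tau and phi genes past the threshold was 0 under every setting except normexp background correction, where it was 1 (GSTU26), and ran from 0 to 1 with each run left out, the 1 being GSTU26 without run 2. The members at an unadjusted p under 0.05 ran from 5 to 12 with each run left out. Without the replicate block they were 2, with a lowest adjusted p of 0.620, while the calls over all genes fell from 948 to 142. The interaction called 0 to 1 members with each run left out, the 1 being GSTU9 without run 1. Its members at an unadjusted p under 0.05 were 7 to 19 with each run left out and 2 without the block. The median change ran from 0.026 to 0.11 and the median mock SD from 0.53 to 0.67 with each run left out. With each run left out, the change ran from -0.13 (without run 2) to 0.55 for GSTU17, from -0.0092 (without run 2) to 0.28 for GSTU25, from -0.16 to 0.056 (without run 3) for GSTU2 and from -0.32 to 0.031 (without run 4) for GSTU6, so the sign turned in each. The calls of UGT73B4 and PLT1 were lost without the filter (adjusted p = 0.0849 and 0.0788 by limma) and without the block (adjusted p = 0.9997 and 0.0544 by limma), where SMR7 still passed. The calls over all genes were 328 without a filter and 181 to 1022 with each run left out. The cause of these shifts was not tested. Slides and runs coincide, so the slide as a block gave the same fit. Raising dim levels to the lowest signal well above background was chosen after seeing the data. Genes near background limit the precision: GSTF13, GSTF5 and GSTU3 were dim.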
